A study of Rattus norvegicus with 40 samples.

Results

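Superoxide, hydrogen peroxide and other oxidants arise in skeletal muscle from mitochondrial respiration and from contraction, and a set of enzymes removes them or repairs what they damage. Superoxide dismutases turn superoxide into hydrogen peroxide, catalase turns hydrogen peroxide into water and oxygen, and glutathione serves as the main soluble thiol reductant of the cell. The transcription factor Nrf2, the product of Nfe2l2, is held by KEAP1 and degraded in unstressed cells, and when oxidants modify KEAP1 it enters the nucleus, pairs with small MAF proteins and binds antioxidant response elements near genes such as Nqo1, Hmox1 and Gclc.

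Messenger RNA of 7 genes of this defence was followed here. They were given by a fixed list of Ensembl rat identifiers, chosen with earlier results of these data known: Nfe2l2 (ENSRNOG00000001548), Nqo1 (ENSRNOG00000012772), Hmox1 (ENSRNOG00000014117), Gclc (ENSRNOG00000006302), Cat (ENSRNOG00000008364), Sod1 (ENSRNOG00000002115) and Sod2 (ENSRNOG00000019048). All 7 were present among the 32545 rows of the count table, and all 7 passed the filter on low counts in every comparison. The symbols came with the list, since the table gives identifiers alone.

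The libraries came from male Wistar rats, 10 of them 20 months old and 10 others 22 months old, and the labels name no treatment. Each animal gave 1 library of gastrocnemius, a calf muscle, and 1 of triceps (labelled tricep), a muscle of the fore limb, which made 40 libraries in 4 groups of 10. The study placed 20 months in the early sarcopenic and 22 months in the sarcopenic phase of rat muscle, and no younger animals were analysed here. Because each age holds other animals, differences between the ages are differences between groups of rats and not changes followed within a rat.

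Library totals ran from 10983887 to 68580194 counts, with group medians of 24251735 and 26775962 in gastrocnemius and 19016187 and 16966394 in triceps at 20 and 22 months. The smallest count behind any value below was 76, for Hmox1 in a triceps library. Levels are given in CPM, counts divided by library size after TMM scaling, which sets the bulk of genes equal between libraries. Levels of different genes are not set against each other, because CPM does not allow for transcript length. On the first principal component of all 40 libraries, triceps replicate 7 of 20 months lay at 10.9, among the gastrocnemius libraries, and triceps replicate 10 of 20 months at -4.45, next to the lowest gastrocnemius library at -2.24. Markers of muscle fibres and of other cell types, and further genes of the pathway, had been listed by symbol and are not analysed here, since no source at hand ties a symbol to an Ensembl identifier.

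To show the regulatory sequence next to these genes, RefSeq promoters on the rat assembly GRCr8 were searched for the core of the antioxidant response element, TGACNNNGC, on both strands. The count table itself was made on another assembly, Rnor_6.0, and no coordinate was carried between them. A promoter was found for 6 of the 7 genes, Nfe2l2, Nqo1, Gclc, Cat, Sod1 and Sod2. In the window from 250 bases before to 50 bases after the start site, the core occurred in 12.1% of 33469 rat promoters. Of the 6, Sod2 held 1 match, starting 35 bases before the start site, and Nfe2l2 held 1 match, at position 39 of the transcript and so outside the stretch shown. Nqo1, Gclc, Cat and Sod1 held none in this window. Sequence outside the window was not searched, so an element farther from the start site would be missed. The AP-1 site TGACTCA, whose letters can overlap the core, occurred in 4.63% of promoters and in 0 of these 6. The letters of the TATA box, TATAAA, occurred anywhere in the window in 14.2% of promoters. They occurred in those of Nqo1, Sod1 and Gclc, at positions -59, -28 and -244 from the start site. The GC box GGGCGG occurred in 33.1% and in all of the 6 but Cat. Below are the 250 bases before the start site, 5′ to 3′ along the gene, of the regulator, of 2 genes that were higher in gastrocnemius at 22 months and of 1 that was not. Capitals mark the core of the element.
Nfe2l2, chr3:81029000-81029249, minus strand: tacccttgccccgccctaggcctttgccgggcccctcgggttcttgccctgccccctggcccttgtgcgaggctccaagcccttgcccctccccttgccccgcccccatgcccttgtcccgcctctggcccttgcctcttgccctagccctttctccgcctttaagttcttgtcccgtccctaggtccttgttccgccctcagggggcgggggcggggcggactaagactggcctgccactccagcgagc
Nqo1, chr19:52220268-52220517, minus strand: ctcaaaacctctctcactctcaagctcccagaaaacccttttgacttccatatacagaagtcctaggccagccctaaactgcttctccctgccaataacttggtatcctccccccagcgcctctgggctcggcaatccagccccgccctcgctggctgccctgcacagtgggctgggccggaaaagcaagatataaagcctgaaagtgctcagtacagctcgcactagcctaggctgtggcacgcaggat
Cat, chr3:110329527-110329776, minus strand: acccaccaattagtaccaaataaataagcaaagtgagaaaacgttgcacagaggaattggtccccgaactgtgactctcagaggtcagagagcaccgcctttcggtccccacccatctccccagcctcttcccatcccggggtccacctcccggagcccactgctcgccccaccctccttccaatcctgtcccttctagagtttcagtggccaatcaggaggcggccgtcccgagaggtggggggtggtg
Sod2, chr1:50050169-50050418, minus strand: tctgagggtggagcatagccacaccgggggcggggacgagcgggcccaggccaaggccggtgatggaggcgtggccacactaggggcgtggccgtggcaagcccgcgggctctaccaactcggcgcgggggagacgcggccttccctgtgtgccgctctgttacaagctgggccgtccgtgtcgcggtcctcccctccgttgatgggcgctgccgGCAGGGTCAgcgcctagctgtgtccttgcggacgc
These letters are a description of the window, and binding was not measured.

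At 22 months, Hmox1, Nqo1, Cat and Nfe2l2 were higher in gastrocnemius than in triceps, while Gclc, Sod1 and Sod2 did not pass the test. The differences ran from 1.21-fold for Nfe2l2 to 2.67-fold for Hmox1. At 20 months only Hmox1 passed, and it did not when both muscles of a rat were paired. No gene of the 7 passed between the ages in either muscle.

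**Figure D1:**
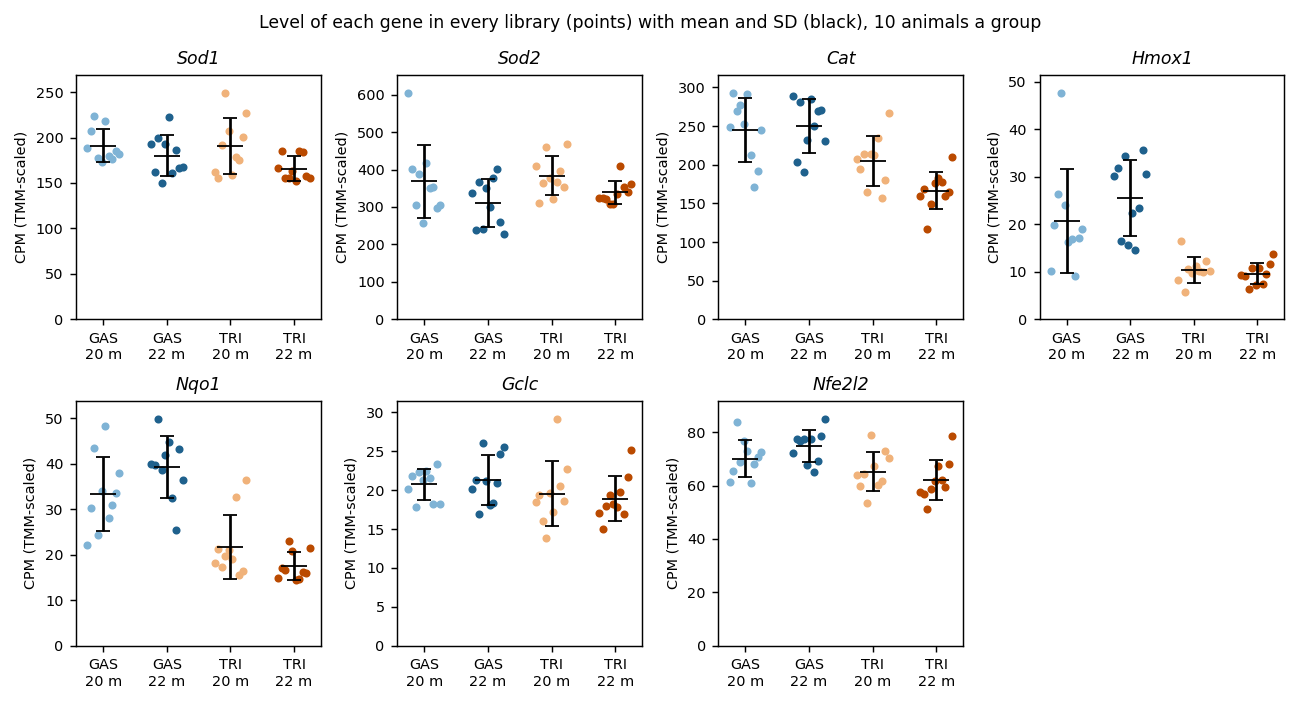
Level of each of the 7 genes in CPM (vertical axes, linear, from 0) in gastrocnemius (GAS) and triceps (TRI) at 20 and 22 months (m). Each point is 1 library, and black marks are the mean and SD of 10 animals. The Hmox1 and Nqo1 points of gastrocnemius at 22 months all lie above those of triceps at 22 months.

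The question of how the hind limb and the fore limb muscle differed was asked first at 22 months. Here 4 of the 7 genes were called higher in gastrocnemius (edgeR, adjusted p below 0.01) and 0 were called lower, where 10.5% of all 12565 genes were called higher and 9.82% lower. Scaled by library totals instead, the same comparison called 2823 genes higher and 636 lower, against 1318 and 1234 with TMM, because this scaling moved the median log2 difference of all genes by 0.19. It also moved it by 0.10 for the muscles at 20 months and by 0.13 between ages in gastrocnemius. The 4 calls stood under both scalings, and Sod1 was called as well with library totals.

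Nfe2l2, the regulator, had a lowest, median and highest level of 65.1, 77.1 and 84.9 CPM in gastrocnemius at 22 months. In triceps of the same animals it was at 51.1, 60.5 and 78.6 CPM. The groups overlapped, but gastrocnemius was the higher muscle in 10 of 10 animals. The log2 difference came to 0.27 ± 0.07 (SE, edgeR adjusted p = 0.00467), and to 0.47 ± 0.10 with library totals. Without replicate 2, 3 or 4 it was between 0.25 and 0.26 with adjusted p-values of 0.0171, 0.0106 and 0.0154 (edgeR), so this call, unlike its direction, depended on single animals.

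Nqo1 encodes a quinone reductase and is a classic Nrf2 target. It was at 25.4, 39.9 and 49.9 CPM in gastrocnemius at 22 months (lowest, median and highest of 10) and at 14.4, 16.4 and 23.1 CPM in triceps. The lowest gastrocnemius library lay above the highest triceps library. The log2 difference of 1.17 ± 0.11 (SE), or 2.26-fold, had an adjusted p of 8.36e-08 (edgeR), and 49 genes of the 12565 had a smaller p. Within animals the gastrocnemius level was between 1.58 and 3.11 times the triceps level.

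Hmox1 encodes the inducible haem oxygenase, which splits haem into biliverdin, iron and carbon monoxide and is abundant in macrophages that take up red cells. Its level in gastrocnemius at 22 months was 14.6, 26.8 and 35.5 CPM, and in triceps 6.49, 9.43 and 13.8 CPM. Again the groups did not overlap, and the ratio within animals was between 1.98 and 3.51. On the log2 scale the muscles differed by 1.41 ± 0.18 (SE, edgeR adjusted p = 4.01e-06). In bulk muscle, more cells of a type and more RNA per cell cannot be told apart, and the part of other cell types in this difference was not tested. Groups that did not overlap, with gastrocnemius higher, occurred for 2.3% of all genes at 22 months and for 2 of these 7, Hmox1 and Nqo1.

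Gclc encodes the catalytic subunit of glutamate-cysteine ligase, the enzyme that limits glutathione synthesis. It was at 16.9, 21.1 and 26.1 CPM in gastrocnemius and at 14.95, 18.1 and 25.2 CPM in triceps at 22 months, with most of both ranges shared. The log2 difference of 0.18 ± 0.10 (SE) did not pass (edgeR, adjusted p = 0.152), and its 95% interval ran from -0.02 to 0.38. With library totals it was 0.38 ± 0.13 (SE), which did not pass the threshold of 0.01 either (edgeR, adjusted p = 0.0229).

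Cat, the peroxisomal catalase, was at 191, 259.6 and 289 CPM in gastrocnemius and at 117, 166.5 and 209.7 CPM in triceps at 22 months. Of the gastrocnemius libraries, 8 of 10 lay above the highest triceps library, and 10 of 10 animals had the higher level in gastrocnemius. This came to a log2 difference of 0.60 ± 0.09 (SE), or 1.51-fold (edgeR adjusted p = 4.37e-05).

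Sod1, the cytosolic copper-zinc dismutase, was at 149.6, 177 and 222.5 CPM in gastrocnemius and at 152, 160.4 and 186 CPM in triceps. Its log2 difference of 0.13 ± 0.07 (SE) did not pass with TMM (edgeR, adjusted p = 0.182) and did pass with library totals, at 0.31 ± 0.06 (SE) and an adjusted p of 0.00052. Sod2, the mitochondrial manganese dismutase, was at 227, 319 and 402 CPM in gastrocnemius and at 309, 329.7 and 409.5 CPM in triceps. Its log2 difference of -0.12 ± 0.10 (SE) did not pass (edgeR, adjusted p = 0.381), ran from -0.33 to 0.09 in its 95% interval, and changed sign to 0.05 with library totals. Within animals, Sod1 was higher in gastrocnemius in 7 of 10 and Sod2 in 4 of 10.

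**Figure D2:**
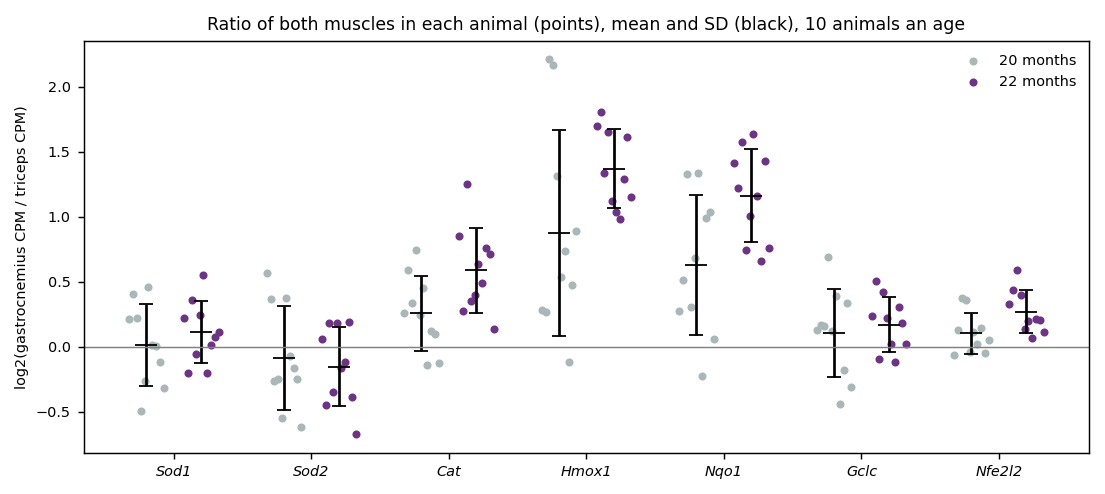
Log2 ratio of gastrocnemius to triceps CPM within each animal (points) for the 7 genes at 20 and 22 months, with mean and SD of 10 animals (black). At 22 months every point of Hmox1, Nqo1, Cat and Nfe2l2 lies above 0, while at 20 months each of these genes has 1 or more animals below 0.

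The same comparison at 20 months, in the other 10 rats, called 1 of the 7 genes higher in gastrocnemius and 0 lower, beside 2.39% of all 12426 genes called higher and 1.37% lower. With library totals the counts over all genes were 323 higher and 102 lower, against 297 and 170 with TMM. None of the 7 had groups that did not overlap, which happened for 0.338% of genes with gastrocnemius higher.

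Hmox1 was the gene called. In gastrocnemius at 20 months its level was 9.17, 18.0 and 47.7 CPM, and in triceps 5.71, 10.2 and 16.4 CPM. Of the 10 gastrocnemius libraries, 7 lay above the highest triceps library, and gastrocnemius was higher in 9 of 10 animals. Its log2 difference, 0.998 ± 0.24 (SE) or 2.00-fold, had an edgeR adjusted p of 0.00988, close to the threshold. With the animal as a block, which pairs both muscles of a rat, it was 0.89 ± 0.22 (SE) and no longer called (edgeR, adjusted p = 0.0199), and 0 of the 7 genes were called. Leaving out replicate 3, 4, 5, 6, 7, 9 or 10 likewise ended the call, with adjusted p-values by edgeR between 0.0146 and 0.0422. The widest ratios within animals were 4.63 in replicate 3, which had the lowest triceps level, and 4.50 in replicate 4, which had the highest gastrocnemius level. Replicate 8, at 0.921, was the only animal with less Hmox1 in gastrocnemius.

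Nqo1 was at 22.1, 32.3 and 48.3 CPM in gastrocnemius and at 15.6, 19.4 and 36.4 CPM in triceps at 20 months. Every gastrocnemius library lay above the triceps median, and 9 of 10 animals had more in gastrocnemius, but the log2 difference of 0.62 ± 0.16 (SE) was not called by edgeR (adjusted p = 0.0177). DESeq2 called it, at 0.61 ± 0.17 (SE) and an adjusted p of 0.00468. The highest triceps levels were those of replicate 10, at 36.4 CPM, and of replicate 7, at 32.8 CPM, the triceps libraries nearest to gastrocnemius on the first principal component. The other 8 triceps libraries were between 15.6 and 21.3 CPM. Without replicate 7 the log2 difference was 0.74 and called (edgeR, adjusted p = 0.0056), and without replicate 10 it was 0.70 and called (edgeR, adjusted p = 0.00776). Replicates 7 and 10 had the lowest ratios within animals, 0.855 and 1.04, so leaving out either one raises the difference. Leaving out replicate 3, 5 or 6 gave 0.54, 0.61 or 0.53, not called (edgeR, adjusted p = 0.0723, 0.0516 and 0.0546).

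Cat showed a smaller difference at this age. Its level was 172, 251 and 293 CPM in gastrocnemius and 157, 209.9 and 267 CPM in triceps, with 8 of 10 animals higher in gastrocnemius. The exceptions were again replicates 7 and 10, at ratios of 0.906 and 0.916. The log2 difference of 0.27 ± 0.11 (SE) did not pass (edgeR, adjusted p = 0.1165), and without replicate 7 or 10 it was 0.33 or 0.32 and did not pass either (edgeR, adjusted p = 0.0711 and 0.0736). Leaving out replicate 4, which had the widest ratio at 1.68, gave 0.22 (edgeR, adjusted p = 0.273). Nfe2l2 was at 60.9, 69.7 and 83.7 CPM in gastrocnemius and at 53.5, 64.2 and 78.8 CPM in triceps, a log2 difference of 0.11 ± 0.07 (SE) that did not pass either (edgeR, adjusted p = 0.329), nor did its 0.23 with library totals (edgeR, adjusted p = 0.135).

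For Gclc, Sod1 and Sod2 the log2 differences between the muscles at 20 months were 0.10, 0.01 and -0.05. The 95% intervals were -0.12 to 0.32 for Gclc, -0.16 to 0.19 for Sod1 and -0.30 to 0.21 for Sod2, and adjusted p-values by edgeR were 0.612 or more. Gclc was at 0.19 without replicate 7 (edgeR, unadjusted p = 0.0427, adjusted p = 0.176), at 0.03 without replicate 4 and at 0.19 with library totals. With library totals Sod1 was at 0.13 and Sod2 changed sign, to 0.04. Sod1 changed sign without replicate 1, 2, 3 or 6.

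**Figure D3:**
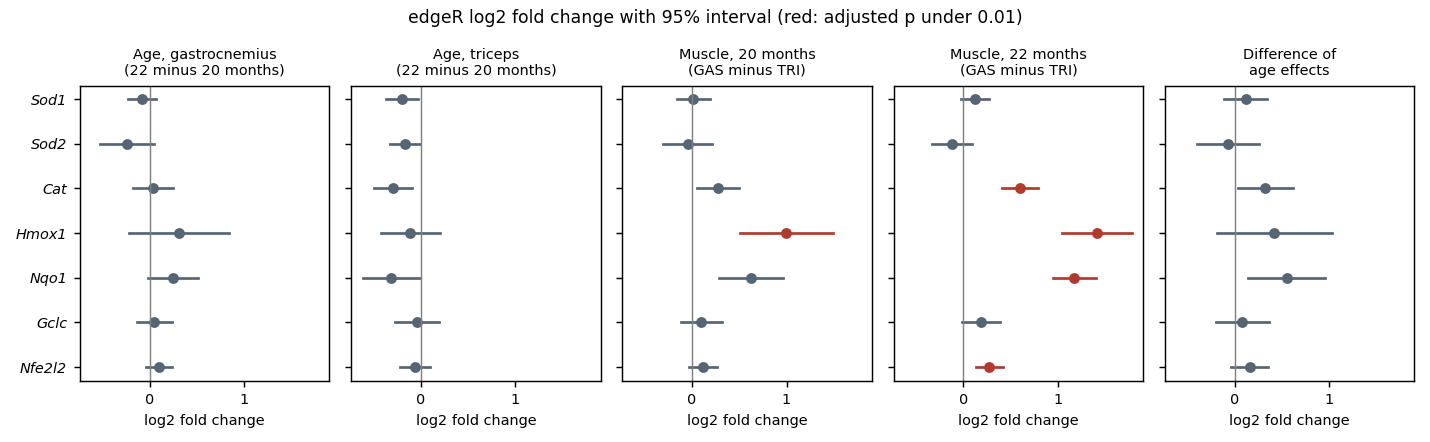
Log2 fold change by edgeR (points) with its 95% interval (lines) of the 7 genes in 5 comparisons, age within each muscle, gastrocnemius (GAS) minus triceps (TRI) at each age, and the difference of the age effects. Red marks an adjusted p under 0.01, reached by Hmox1 at 20 months and by Hmox1, Nqo1, Cat and Nfe2l2 at 22 months. These fits did not pair the muscles of a rat, and with the animal as a block Hmox1 at 20 months was not called.

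Age was then compared within gastrocnemius. By edgeR 0 of the 7 genes were called, beside 0 of 12659 genes (0%), and 0 of the 7 had an unadjusted p under 0.05, where 10.3% of all genes did. With library totals, Nqo1 at 0.37 and Nfe2l2 at 0.23 had unadjusted p-values of 0.0200 and 0.0488 (edgeR, adjusted p = 0.223 and 0.264), and leaving out single libraries gave 0 or 1 gene. DESeq2 called 0 of the 7 and 1 gene in all. Hmox1 and Nqo1 had the largest positive log2 changes, 0.31 ± 0.25 and 0.25 ± 0.13 (SE), with adjusted p-values by edgeR of 0.654 and 0.506. For Nqo1, 9 of the 10 older rats exceeded the median of the younger ones, and the 95% interval ran from -0.02 to 0.52. Hmox1 without gastrocnemius replicate 4 of 20 months, the highest of its group, was at 0.55 (edgeR, unadjusted p = 0.0187, adjusted p = 0.410). The mean of Nfe2l2 was 70.1 ± 6.93 CPM in the younger and 74.6 ± 6.02 CPM in the older rats (SD, n = 10 each), a log2 change of 0.10 ± 0.07 (SE). Cat and Gclc were at 0.04 ± 0.10 and 0.05 ± 0.09 (SE). Sod2 had the most negative value, -0.24 ± 0.14 (SE, edgeR adjusted p = 0.537, and -0.14 without replicate 1 of 20 months), and Sod1 was at -0.08 ± 0.07 (SE), which turned to 0.04 with library totals.

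In triceps, the 7 log2 changes with age were all negative, between -0.31 and -0.04, but 0 were called by edgeR, beside 0 of 12345 genes (0%), and 0 by DESeq2, and Gclc turned to 0.05 without replicate 7 of 20 months. The median over the 7 was -0.17, where the median over all genes was 0.01 and 52.8% of all genes had a positive change. The 7 changes were read from the same libraries and are not independent of each other. An unadjusted p under 0.05 was reached by 4 of the 7, Cat, Sod1, Sod2 and Nqo1, and by 8.78% of all genes. With library totals, and likewise without replicate 10 of 20 months, only Cat of the 7 reached it, and leaving out other single libraries gave 2 to 4 genes. Cat went from 204 ± 32.5 CPM at 20 months to 166.5 ± 24.0 CPM at 22 months (SD, n = 10 each), and 0 of the 10 animals of 22 months were above the 20-month median of 209.9 CPM. The highest of these animals was close to that median, at 209.7 CPM. For Cat the log2 change of -0.29 ± 0.10 (SE) had an unadjusted p of 0.00694 and an adjusted p of 0.513 by edgeR. Sod1 was at 191 ± 30.9 and 166 ± 13.7 CPM and Sod2 at 383 ± 52.3 and 339 ± 30.2 CPM (SD, n = 10 each), with 9 of 10 older animals below the 20-month median for each. For Sod1 the second highest older animal and the 20-month median both rounded to 184.9 CPM. The log2 changes of Sod1 and Sod2 were -0.20 ± 0.08 and -0.17 ± 0.08 (SE), with adjusted p-values by edgeR of 0.535 and 0.541. Nqo1 was at 21.8 ± 7.06 and 17.5 ± 3.13 CPM (SD, n = 10 each), a log2 change of -0.31 ± 0.15 (SE, edgeR adjusted p = 0.564). Without replicate 7 or replicate 10 of 20 months, its highest triceps libraries, it was -0.22 or -0.20, with unadjusted p-values of 0.124 and 0.131 (edgeR). Cat was at -0.27 or -0.24 without them, with unadjusted p-values of 0.0139 and 0.0170 (edgeR). Hmox1, Nfe2l2 and Gclc had log2 changes of -0.11, -0.06 and -0.04, each smaller than its SE.

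Whether the muscles differed in their age effect was tested directly on all 40 libraries. By edgeR 0 of the 7 genes were called, beside 0 of 12980 genes (0%), and DESeq2 called none of the 7 and 0 genes in all. Of the 7, 2 had an unadjusted p under 0.05, Nqo1 and Cat, and so had 389 of all genes (3%). For Nqo1 the age effect in gastrocnemius minus that in triceps was 0.55 ± 0.20 (SE) on the log2 scale, with an unadjusted p of 0.00899 and an adjusted p of 0.999. For Cat it was 0.32 ± 0.14 (SE), with an unadjusted p of 0.0294. With the animal as a block these unadjusted p-values were 0.00972 and 0.0261, and 0 genes of the 7 were called. The larger number of calls at 22 than at 20 months is therefore not shown to be a change of the muscle difference with age.

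The order of the 4 group means was the same for 5 of the genes, and how many of all genes share it was not counted. Nfe2l2, Nqo1, Hmox1, Gclc and Cat were highest in gastrocnemius at 22 months, followed by gastrocnemius at 20 months, triceps at 20 months and triceps at 22 months. Neighbours in this order were called different only for Hmox1, between the muscles at 20 months, and not with the animal as a block. For Nqo1 the means down this order were 39.3 ± 6.77, 33.3 ± 8.13, 21.8 ± 7.06 and 17.5 ± 3.13 CPM (SD, n = 10 each). For Hmox1 they were 25.5 ± 8.02, 20.7 ± 10.9, 10.5 ± 2.75 and 9.62 ± 2.24 CPM (SD, n = 10 each). Some steps were small beside the spread, as for Gclc in triceps, at 19.5 ± 4.17 and 18.9 ± 2.86 CPM at 20 and 22 months (SD, n = 10 each). Single libraries turned some steps. Without replicate 8 of 20 months the log2 change of Cat with age in gastrocnemius was -0.0129. Without replicate 7 of 20 months that of Gclc in triceps was 0.0503. Sod1 had its highest mean in gastrocnemius at 20 months, at 191 CPM beside 190.6 CPM in triceps at 20 months. Sod2 had its highest mean in triceps at 20 months, and for both dismutases each muscle had its higher mean at 20 months.

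Hmox1 varied most among the animals of a group in 3 of the 4 groups, and Nqo1 did in triceps at 20 months. The coefficient of variation, the SD as a percentage of the mean, was 52.8% and 31.4% for Hmox1 in gastrocnemius at 20 and 22 months and 26.3% and 23.3% in triceps. In gastrocnemius at 20 months, 94.8% of all genes had a smaller one, and the median over 12980 genes was 18.6%. For Nqo1 it was between 17.2% and 32.4% in the 4 groups, and for Nfe2l2 between 8.06% and 12.2%. The lowest of the 7 genes was Nfe2l2 in gastrocnemius at 22 months and triceps at 20 months, and Sod1 in the other groups, at 9.62% in gastrocnemius at 20 months and 8.26% in triceps at 22 months. Gclc was at 9.67% in gastrocnemius and 21.4% in triceps at 20 months.

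An animal's level in one muscle was compared with its level in the other over the 20 rats, on log2 CPM. Pearson r was between -0.175 for Sod1 and 0.306 for Nfe2l2, and none of the 7 relations passed (two-sided permutation tests, smallest p = 0.188, adjusted 0.644). Spearman rho was between -0.202 and 0.308, with a smallest permutation p of 0.186. Within 22 months Hmox1 had an r of 0.797 and a rho of 0.721 (permutation p = 0.00718 and 0.0231), which missed the threshold of 0.05 over the 7 genes (adjusted 0.0503 and 0.161), and within 20 months its r was -0.031. Without the 2 animals farthest from the median, its r within 22 months was 0.688 (permutation p = 0.0587).

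Since several of the genes are targets of Nrf2, the level of Nfe2l2 was set against each of the others within a muscle, in 12 relations over 20 libraries. These are relations between RNA levels, and neither Nrf2 protein nor its activity was measured. The part of other cell types in them was not tested. In gastrocnemius Nfe2l2 was positively correlated with Nqo1 (Pearson r 0.677, permutation p = 0.00106, adjusted 0.00636, Spearman rho 0.672, permutation p = 0.00159) and negatively with Sod2 (r -0.751, permutation p = 0.00016, adjusted 0.00192, rho -0.702, permutation p = 0.00084). Over all 12979 other genes the median r with Nfe2l2 in gastrocnemius was 0.01, with 1.93% of genes above Nqo1 and 0.74% below Sod2. Without the 2 libraries farthest from the Nfe2l2 median, r was 0.543 for Nqo1 and -0.736 for Sod2. Within 20 and 22 months r was 0.757 and 0.423 for Nqo1 and -0.645 and -0.809 for Sod2, where that of Sod2 at 22 months passed (permutation p = 0.00507, adjusted 0.0304), although its rho of -0.83 did not (permutation p = 0.0047, adjusted 0.0564). That of Nqo1 at 20 months did not (permutation p = 0.0117, adjusted 0.141), although its rho of 0.842 did (permutation p = 0.00346, adjusted 0.0415).

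Hmox1 was also positively correlated with Nfe2l2 in gastrocnemius (r 0.566, permutation p = 0.00975, adjusted 0.0292, rho 0.626, permutation p = 0.00367), but without the 2 farthest libraries r was 0.463 with a permutation p of 0.0544 and no longer passed. Within 20 and 22 months its r was 0.422 and 0.66, and neither passed (permutation p = 0.222 and 0.0376, adjusted 0.667 and 0.0903). Over the 20 gastrocnemius libraries Sod1, Cat and Gclc had r between 0.006 and 0.134. In triceps the only relation that passed was that with Cat (r 0.629, permutation p = 0.003, adjusted 0.012, rho 0.644, permutation p = 0.00268), where 1.06% of genes had a higher r. It was 0.616 without the 2 farthest libraries, and 0.399 and 0.858 within 20 and 22 months, the latter (adjusted 0.0304, and 0.0806 for its rho of 0.733, by permutation) falling to 0.528 without the 2 farthest of those 10 libraries. Within 22 months Hmox1 and Gclc in triceps also passed, at 0.757 and 0.753 (permutation p = 0.0108 and 0.0149, adjusted 0.0431 and 0.0446), but not by rho. Without the 2 farthest of those libraries they were at 0.332 and 0.659 (permutation p = 0.417 and 0.0761). Nqo1 and Sod2 had r of 0.162 and 0.161 with Nfe2l2 in triceps, and whether these differ from the values in gastrocnemius was not tested. With library totals in place of TMM, 9 of the 12 relations passed instead of 4, with Sod1 in gastrocnemius going from 0.006 to 0.663, so the number of genes that varied with Nfe2l2 depends on the scaling.

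**Figure D4:**
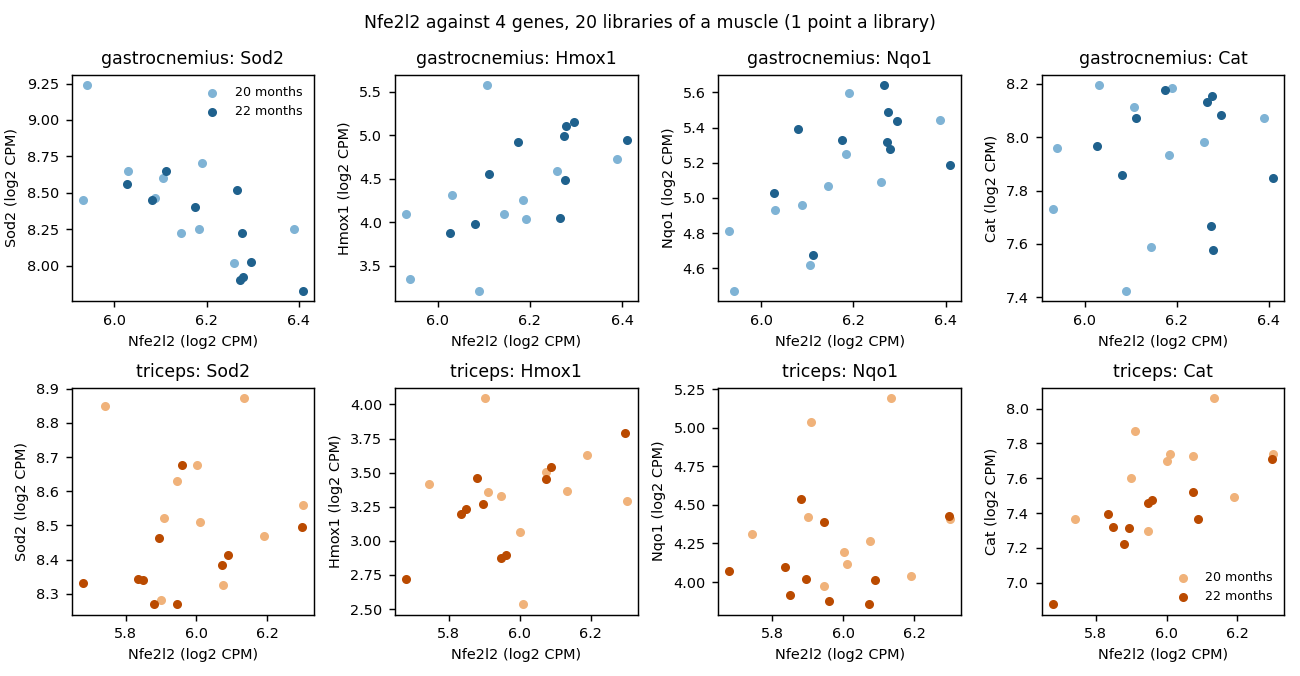
Nfe2l2 (horizontal axes, log2 CPM) against Sod2, Hmox1, Nqo1 and Cat (vertical axes, log2 CPM) in the 20 libraries of gastrocnemius (top) and of triceps (bottom), 1 point a library, coloured by age. In gastrocnemius Sod2 falls (r -0.751) and Nqo1 rises (r 0.677) along Nfe2l2, and in triceps Cat rises (r 0.629).

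Outside the list, the gene most like Sod2 across all 40 libraries was ENSRNOG00000013331, with a Pearson r of log2 CPM of 0.952 and of 0.951 for deviations from the group means. The gene most like Hmox1 was ENSRNOG00000053468, with an r of 0.894 that fell to 0.732 for deviations from the group means. They were taken from 9746 genes whose mean over the libraries was 5 CPM or more, and the most alike genes of the other 5 members had r between 0.735 and 0.887.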

How the data were processed

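Polyadenylated RNA of rat gastrocnemius and triceps was isolated (miRNeasy kit) and made into libraries (TruSeq RNA kit). The authors deposited 1 table of raw read counts per Ensembl gene, without normalization. The submitters' processing notes name CASAVA 1.8, STAR 2.3.0e, HTSeq and the build Rnor_6.0. The annotation and strand setting behind these HTSeq counts were not found in the sources read. The methods of the study describe the rat libraries as unstranded, so reads of overlapping antisense genes cannot be told apart, and its own rat values as made with kallisto on an Ensembl annotation. Reads shared with similar genes or pseudogenes were not analysed. Column names combine animal number and muscle letter, which each library's title repeats.

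Counts were tested in R 4.3.3 with edgeR 4.0.16 (trimmed mean of M values, TMM, quasi-likelihood F-test, two-sided, at least 1 CPM in 10 libraries, Benjamini-Hochberg over all genes, called at an adjusted p under 0.01), each comparison on its own 20 libraries and the difference of the age effects on all 40. SEs came from the F statistic. DESeq2 1.42.0, library totals, no filter, a threshold of 0.05, leaving out animals or libraries and blocks were alternatives. Correlations used log2 CPM with a prior count of 2 and 100000 permutations. The test was tried on simulated data. In 180 pairs of libraries within groups the smallest chi-square was 12.1 per gene, so none were counted as copies.

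Both muscles of an animal carry its number in the labels, which gives the pairing. The median r between their deviations from the group means was 0.162, from -0.405 to 0.700, and 13 of 20 pairs were over 0.1. Rats of different ages that share only a number had medians of 0.0997 in gastrocnemius and 0.150 in triceps, so the pairing rests on the labels. The 7 genes, lists and tests were chosen with earlier results of these data known. All 7 are named, with the single most alike gene of the 2 with the highest likeness. Of 47357 genes in the annotation table, 0 carried an Ensembl identifier, so lists fixed by symbol were not used.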

Additional observations from a re-analysis of the deposited data

Results flagged for a closer look

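Of 42 sets of 10 values examined, 3 had 1 library far from the others, with a gap to its nearest neighbour beyond Dixon's limit as a share of the set's range (0.544, 0.481 and 0.551), and chance alone gives about 1 in 20 such sets. Sod2 in gastrocnemius at 20 months was at 605.2 CPM in replicate 1, where the next highest animal was at 416.6 CPM. Sod2 in triceps at 22 months was at 409.5 CPM in replicate 7, where the next was at 361 CPM. Hmox1 in gastrocnemius at 20 months was at 47.69 CPM in replicate 4, where the next was at 26.46 CPM.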

How the results depend on the processing

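Between the ages and for the difference of the age effects, 0 of the 7 genes were called under every alternative run, and at 22 months the calls of Cat, Hmox1, Nfe2l2 and Nqo1 stood under DESeq2, library totals, no filter, a threshold of 0.05 and the animal block. With library totals Sod1 was called as well at 22 months, and the call of Nfe2l2 was lost without some single animals. At 20 months the count of 1 was 2 with DESeq2 and with a threshold of 0.05 (Hmox1 and Nqo1), 0 with library totals, with no filter and with the animal as replicate block, and 0 to 1 when 1 animal was left out. Over all genes at 20 months edgeR called 467 and DESeq2 878, and a threshold of 0.05 gave 1203, against 4265 in place of 2552 at 22 months. The replicate block changed no other call. Rats of different ages share only a number: with it as a block 0 genes were called in either muscle, and deviations of same-numbered rats had a median r of 0.0997 in gastrocnemius and 0.150 in triceps, with 2 and 3 of 10 closest to their own number. Of the 12 relations with Nfe2l2, 4 passed by r, 9 with library totals, 0 within 20 months and 4 within 22 months (Sod2 in gastrocnemius and Cat, Hmox1 and Gclc in triceps); by rho, Nqo1 in gastrocnemius passed within 20 months.

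Signs turned with library totals for Sod1 with age in gastrocnemius (0.0421), for Sod2 between muscles at 20 months (0.0423), at 22 months (0.0452) and in the difference of the age effects (0.0029), for the r of Cat between muscles (-0.0547) and for the r of Sod1 with Nfe2l2 in triceps (-0.0544). With 1 library or animal left out, the log2 change with age was between -0.0129 and 0.0684 for Cat in gastrocnemius and between -0.0927 and 0.0503 for Gclc in triceps, and the muscle difference at 20 months was between -0.0318 and 0.073 for Sod1 and between -0.141 and 0.0159 for Sod2. Within 20 months, r between muscles turned for Sod2 (-0.0212), Hmox1 (-0.031), Nqo1 (0.0045) and Gclc (-0.128), and r with Nfe2l2 for Gclc in gastrocnemius (-0.311) and for Sod2 (-0.15) and Hmox1 (-0.0835) in triceps. Within 22 months, r between muscles turned for Cat (-0.171) and Nqo1 (0.0422), and r with Nfe2l2 for Sod1 (-0.109) and Cat (-0.184) in gastrocnemius and Sod1 (-0.297) in triceps. The causes were not tested. Depth limits Hmox1 most, with 76 counts in its lowest library.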
